A study of Mus musculus with 12 samples.

Results

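The zinc finger genes whose proteins shorten the life of other transcripts, and the IER genes induced beside them, were followed in mouse hearts with and without ischemia-reperfusion (IR). The 9 members are the 3 ZFP36 zinc fingers Zfp36, Zfp36l1 and Zfp36l2, the 2 Regnases Zc3h12a and Zc3h12c, and the 4 immediate early response (IER) genes Ier2, Ier3, Ier5 and Ier5l. They were taken by gene name from the deposited expression tables, 9 of 52858 genes, and all 9 were among the 15240 genes with enough reads to be tested. Averaged over both genotypes, IR raised 4 of the 9 (Zfp36, Zfp36l1, Zc3h12a and Ier5) at the adjusted threshold, against 2.34% of all tested genes. Leaving out single libraries moved this count of members between 1 and 6. The members were chosen with earlier results of these data known, so the count beside that share is a description. Zfp36l2 differed by −0.04 on the log2 scale in the same comparison, and no member passed the test between Slit2-Tg and C57BL/6J hearts.

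The series holds 12 RNA sequencing libraries from heart tissue of male mice aged 3 to 5 months, 3 hearts in each of 4 groups, and the part of the heart sampled was not stated for these libraries. C57BL/6J hearts (C57-non-IR and C57-IR) were set beside hearts of Slit2-Tg mice (Slit2-non-IR and Slit2-IR), which carry the full-length human Slit2 cDNA under the CMV promoter, a promoter that is not restricted to 1 cell type. The transgene was first introduced into oocytes of a C57 and CBA cross, carriers were screened by PCR as heterozygotes, and the methods name C57BL/6J as the background strain. All hearts were excised from mice euthanized by isoflurane and perfused on a Langendorff apparatus with Krebs-Henseleit buffer, so that no blood reached them during the protocol. After 20 min of equilibration, IR hearts received 20 min of global ischemia without flow and 40 min of reperfusion, whereas non-IR hearts were perfused throughout the 80 min. Libraries held 16601154 to 24841291 reads on genes, of which 19.7% to 26.0% were mitochondrial. The 7 cardiomyocyte markers summed to 12552 to 19089 FPKM. FPKM is used here for a level scaled for gene length and a size factor of each library, and so comparable between genes. Neutrophil markers summed to at most 1.39 FPKM and lymphocyte markers to at most 0.307 FPKM in every library. Mouse Slit2 averaged 0.178 ± 0.00799 FPKM in Slit2-non-IR and 0.195 ± 0.0233 FPKM in C57-non-IR hearts (SD, n = 3). After IR it lay between 0.0847 and 0.813 FPKM in Slit2-IR and between 0.213 and 0.282 FPKM in C57-IR hearts, the Slit2-IR hearts falling on both sides of the C57-IR range. Whether reads of the human cDNA reach this row is not given in the sources used here, so it was not used to check the genotype. The paper itself reports significantly more Slit2 mRNA and protein in Slit2-Tg hearts, by semi-quantitative PCR and Western blotting. In these bulk samples, fewer cells of a type and less RNA per cell cannot be told apart.

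ZFP36 proteins bind AU-rich elements in the 3′ untranslated region (UTR) of transcripts and recruit deadenylases, which shorten the poly(A) tail and so lead to decay. Regnases are endonucleases that cut stem-loops in the 3′ UTRs of inflammatory transcripts such as Il6. IER genes are switched on within minutes of growth factors, stress or inflammatory signals, and many genes of both kinds carry AU-rich elements in their own transcripts, so that their levels fall again quickly.

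The AU-rich elements of the members' own transcripts are shown first, because they are what the ZFP36 proteins recognise. Sequences were read from the 3′ UTRs of GENCODE M21 transcripts on the GRCm38 build, 30 bases each, and capitals mark the longest form of the element found, the nonamer TTATTTATT, the heptamer TATTTAT within it or the pentamer ATTTA at its core. The nonamer was present once in each of the 3 ZFP36 transcripts, against 7.38% of 13287 tested genes read in the same way. The stretch of Zfp36 lies at chr7:28376951-28376980 (minus strand), that of Zfp36l1 at chr12:80108167-80108196 (minus strand) and that of Zfp36l2 at chr17:84184914-84184943 (minus strand).
Zfp36: ttatgacgactTTATTTATTgtattaagat
Zfp36l1: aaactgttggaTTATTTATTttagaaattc
Zfp36l2: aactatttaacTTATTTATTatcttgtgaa
The Ier3 stretch at chr17:35822480-35822509 (plus strand) and the Zc3h12c stretch at chr9:52114862-52114891 (minus strand) held the heptamer, which 28.4% of those genes carried.
Ier3: gtgtctaattaaTATTTATgTATTTATgta
Zc3h12c: tgctataatcatTATTTATaggaacaaaga
Zc3h12a, Ier5 and Ier5l held the pentamer but no longer form. At least 1 pentamer, with or without a longer form, was held by 67.1% of those genes. The 755-base 3′ UTR of Ier2 held none of the 3 forms. Ier3 packed 5 pentamers and 4 heptamers into 613 bases, whereas Zc3h12c spread 14 pentamers and 2 heptamers over 4062 bases. Ier2, Ier5 and Ier5l are encoded by single-exon transcripts, a structure found in 2.6% of those genes.

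Promoter sequence was matched for 7 of the 9 members in the RefSeq table (GRCm38.p6), with none for Zfp36l2 and Ier2, and 130 bases of the windows of 4 members are printed because they hold elements of stress-responsive promoters. Windows cover 250 bases before to 50 after a gene's start, and both strands were searched. Capitals mark matches to the AP-1 site TGANTCA, the cyclic AMP response element TGACGTCA, the EGR site GCGNGGGCG, the heat shock pair GAANNTTC or TTCNNGAA, the CCAAT box, the TATA box TATAAA, the CArG box of SRF and the NF-kB consensus. The sequences lie at chr7:28379229-28379358, chr12:80113014-80113143, chr17:35821538-35821667 and chr2:30474304-30474433, in the order printed, each read on the gene's own strand.
Zfp36: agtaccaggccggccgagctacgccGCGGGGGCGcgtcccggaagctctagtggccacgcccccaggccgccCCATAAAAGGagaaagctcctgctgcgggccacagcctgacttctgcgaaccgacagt
Zfp36l1: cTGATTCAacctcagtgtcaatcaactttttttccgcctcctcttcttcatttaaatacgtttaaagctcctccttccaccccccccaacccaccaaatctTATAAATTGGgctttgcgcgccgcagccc
Ier3: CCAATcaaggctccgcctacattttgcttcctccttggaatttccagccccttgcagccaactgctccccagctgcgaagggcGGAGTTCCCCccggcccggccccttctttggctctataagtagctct
Ier5l: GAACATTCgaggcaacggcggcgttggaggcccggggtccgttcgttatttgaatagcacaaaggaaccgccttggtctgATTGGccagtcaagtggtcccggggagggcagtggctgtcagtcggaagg
The Zfp36 window held an EGR site and a CArG box, which 5.55% and 1.63% of all 32851 promoter windows held. The Zfp36l1 window held an AP-1 site (7.81% of windows) and a TATA box (13.6%) that shares a base with a CCAAT box on the other strand. An NF-kB consensus was found for Ier3 (4.51% of windows) and a heat shock pair for Ier5l (15.1%), while the Ier5 window held 2 copies of the CCAAT box (37.4% of windows had at least 1). Zc3h12a and Zc3h12c matched only the GC box GGGCGG, which is not capitalised and occurred in 35.7% of windows. The RefSeq start of Zfp36 lies 1025 bases from the gene start given in the expression tables, so its window is inside the tabulated gene. A match describes the letters of the window and not the use of a site.

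In non-IR hearts the members spanned a wide range of levels. By mean FPKM in C57-non-IR hearts, Ier2 was highest at 102 ± 5.84, followed by Zfp36 at 58.7 ± 14.0 and Ier3 at 56.7 ± 7.56, whose ranges overlapped (SD, n = 3 hearts, as for all means given in this way). Ier5 came next at 37.4 ± 2.37, then Zfp36l1 at 22.4 ± 3.54 and Zfp36l2 at 19.1 ± 3.83, which also overlapped. Ier5l at 8.18 ± 0.565, Zc3h12a at 3.35 ± 0.462 and Zc3h12c at 1.25 ± 0.125 were lowest, each without overlap with its neighbours. Zc3h12c, the least abundant, was still counted with 132 to 278 reads in a library, and Zfp36 with 1771 to 16148 reads.

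**Figure D1:**
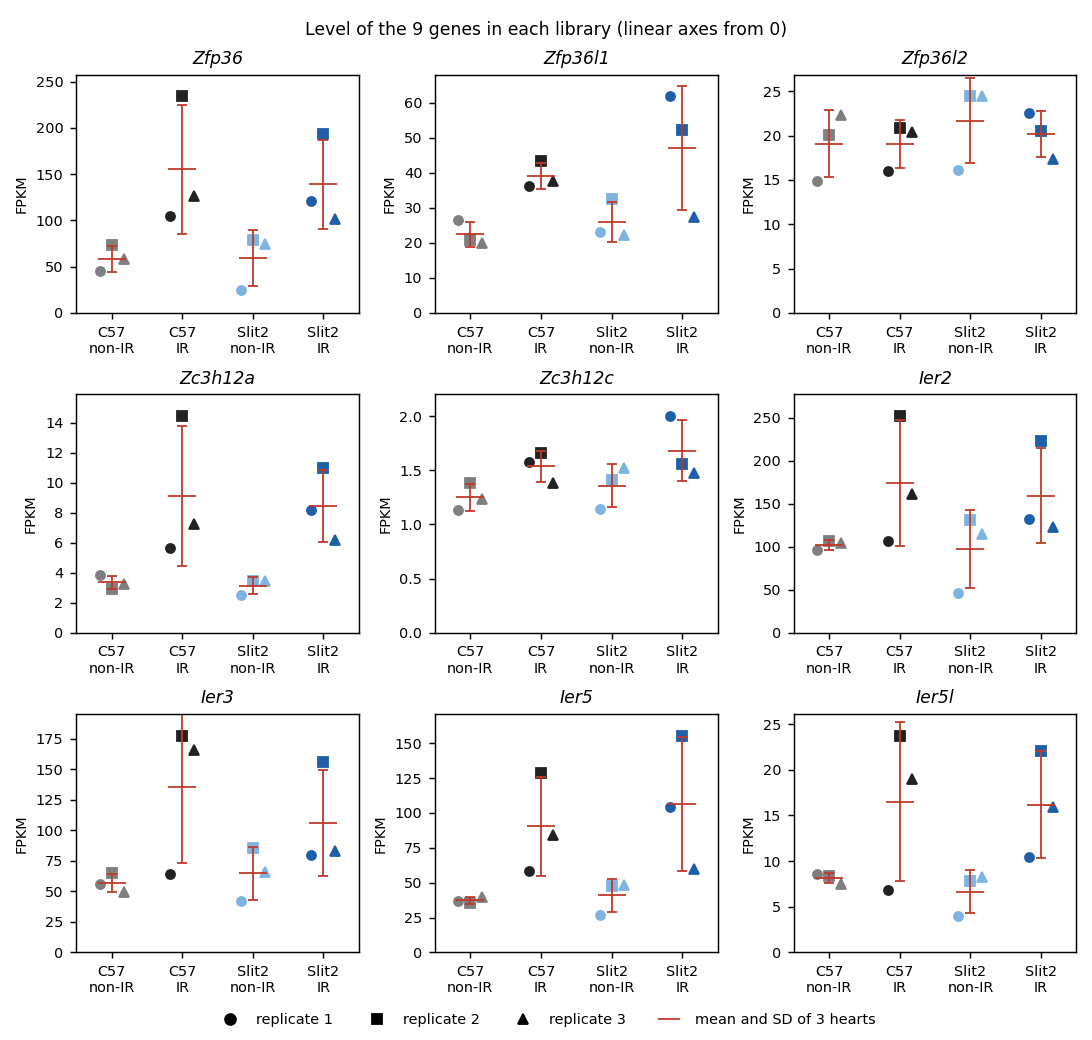
FPKM (linear axes from 0) of the 9 genes in the 12 libraries, by group, with a symbol for each replicate number and the mean and SD of 3 hearts in red. Zfp36, Zc3h12a and Ier5 show all 6 IR libraries above all 6 non-IR libraries, while the 4 groups of Zfp36l2 lie over the same range of 14.9 to 24.5 FPKM.

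The question of the first comparison was what 20 min of ischemia and 40 min of reperfusion did to these transcripts. Zfp36 (tristetraprolin, ENSMUSG00000044786, chr7:28376784-28380253, minus strand), the founding member of its family, had FPKM of 45.2, 73.2 and 57.7 in the 3 C57-non-IR hearts and 105, 234 and 126 in the 3 C57-IR hearts, replicates 1 to 3 in order. In Slit2-non-IR hearts it had 24.6, 78.7 and 74.9 FPKM, and in Slit2-IR hearts 121, 193 and 102 FPKM. Every IR heart was above every non-IR heart in both genotypes, and replicate 1 of Slit2-non-IR was lowest and replicate 2 of C57-IR highest. The mean FPKM of the 6 IR hearts was 2.49 times that of the 6 non-IR hearts. Averaged over both genotypes, the IR difference was 1.33 ± 0.31 (SE) on the log2(FPKM + 1) scale with an adjusted p of 0.0428 (limma). It ranged from 1.06 to 1.47 over 18 alternatives, of which 10 kept it under the threshold (adjusted p 0.00539 to 0.110). The call was lost with no filter beyond 1 read and without any 1 of 7 libraries, namely the 3 C57-non-IR replicates, replicates 2 and 3 of C57-IR and replicates 1 and 2 of Slit2-IR.

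Zfp36l1 (ENSMUSG00000021127, chr12:80107754-80113013, minus strand), which shares the RNA-binding fingers of Zfp36 and is known from endothelial and lymphoid cells, had 26.5, 20.7 and 19.96 FPKM in C57-non-IR and 36.2, 43.4 and 37.7 FPKM in C57-IR hearts. It had 23.2, 32.6 and 22.3 FPKM in Slit2-non-IR and 61.9, 52.1 and 27.5 FPKM in Slit2-IR hearts. The C57BL/6J groups did not overlap, whereas replicate 3 of Slit2-IR fell within the Slit2-non-IR range and replicate 1 of Slit2-IR was the highest of all. The IR difference over both genotypes was 0.78 ± 0.18 with an adjusted p of 0.0413, a mean level 1.78 times higher. Replicate 1 of Slit2-IR also had an atrial marker sum of 1695 FPKM, against 26.6 to 240 FPKM in the other 11 libraries. Without it the Zfp36l1 difference was 0.67 with an adjusted p of 0.0821. That library was not the only one that mattered, since 8 of 18 alternatives kept the call (adjusted p 0.00329 to 0.107). It was also lost with no filter beyond 1 read and without each of the 3 C57-non-IR replicates, replicates 2 and 3 of C57-IR, replicates 1 and 3 of Slit2-non-IR and replicate 2 of Slit2-IR.

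Zfp36l2 (ENSMUSG00000045817, chr17:84183931-84187947, minus strand), the third paralog, did not follow the other two. It had 14.9, 20.1 and 22.4 FPKM in C57-non-IR, 15.96, 20.8 and 20.4 in C57-IR, 16.1, 24.5 and 24.4 in Slit2-non-IR and 22.5, 20.5 and 17.4 in Slit2-IR hearts. All 4 groups overlapped, and no IR heart was above the highest non-IR heart. The IR difference over both genotypes was −0.04 with a 95% interval of −0.33 to 0.26 and an adjusted p of 0.937.

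Because the paralogs are measured in the same library, their difference within a heart is little touched by scaling between libraries. The log2(FPKM + 1) of Zfp36 exceeded that of Zfp36l2 by 0.58 to 1.81 in the 6 non-IR hearts and by 2.38 to 3.43 in the 6 IR hearts, without overlap. Averaged over both genotypes, the IR difference of Zfp36 exceeded that of Zfp36l2 by 1.36 on the log2 scale, and that of Zfp36l1 exceeded it by 0.82, with 5 of 6 IR hearts above every non-IR heart. Between Zfp36 and Zfp36l1 it was 0.55, with 3 of 6 IR hearts above. As shares of the summed FPKM of the 3 genes, Zfp36l2 made up 17.2% to 22.3% in C57-non-IR and 18.01% to 25.2% in Slit2-non-IR hearts, and 6.98% to 11.1% in C57-IR and 7.72% to 11.9% in Slit2-IR hearts. The sum itself was 100.2 ± 13.7 FPKM in C57-non-IR, 213 ± 75.0 FPKM in C57-IR, 107 ± 38.1 FPKM in Slit2-non-IR and 206 ± 59.5 FPKM in Slit2-IR hearts. These pairs were chosen after the values had been seen, so their differences are a description with no test.

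Zc3h12a (Regnase-1, ENSMUSG00000042677, chr4:125118423-125127840, minus strand), the endonuclease that limits inflammatory transcripts, had 3.85, 2.94 and 3.25 FPKM in C57-non-IR and 5.63, 14.4 and 7.26 FPKM in C57-IR hearts. It had 2.49, 3.46 and 3.47 FPKM in Slit2-non-IR and 8.19, 10.95 and 6.15 FPKM in Slit2-IR hearts. Every IR heart was above every non-IR heart, with replicate 2 of C57-IR highest and replicate 1 of Slit2-non-IR lowest. The mean of IR hearts was 2.70 times that of non-IR hearts, the largest ratio among the 9 genes. The difference over both genotypes was 1.15 ± 0.20 with an adjusted p of 0.00900, and it stayed under the threshold in all 18 alternatives (adjusted p 0.00307 to 0.0315).

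Zc3h12c (Regnase-3, ENSMUSG00000035164, chr9:52111344-52168572, minus strand), a relative known from macrophages, lay between 1.13 and 1.52 FPKM in the 6 non-IR hearts and between 1.38 and 2.001 FPKM in the 6 IR hearts, with 4 IR hearts above every non-IR heart. Its highest value was in replicate 1 of Slit2-IR, the library with the high atrial marker sum. The IR difference was 0.18 ± 0.07 with an adjusted p of 0.231, and the pseudocount of 1 presses changes at such low levels together. With a pseudocount of 0.1 the difference was 0.28 with an adjusted p of 0.241. The IR difference of Zc3h12a exceeded that of Zc3h12c by 0.97, with no overlap of IR and non-IR hearts in the within-heart difference, again a description with no test. Zc3h12a made up 68.1% to 77.3% of the 2 genes' summed FPKM in the 6 non-IR hearts and 78.1% to 89.7% in the 6 IR hearts, without overlap.

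Of the IER genes, only Ier5 (ENSMUSG00000056708, chr1:155096361-155099636, minus strand) passed the adjusted threshold with all 12 libraries and no block for the replicate number. Its protein brings the phosphatase PP2A to the heat shock factor HSF1. It had 37.1, 35.2 and 39.9 FPKM in C57-non-IR and 58.5, 128 and 84.1 FPKM in C57-IR hearts, and 26.9, 47.4 and 48.4 FPKM in Slit2-non-IR and 104, 155 and 59.9 FPKM in Slit2-IR hearts. All 6 IR hearts were above all 6 non-IR hearts, at a mean level 2.51 times higher, although replicates within each IR group differed widely. The difference was 1.24 ± 0.25 with an adjusted p of 0.0214. The adjusted p was 0.0523, 0.0573 and 0.0530 when replicate 1 or 2 of C57-non-IR or replicate 1 of Slit2-IR was left out in turn, and 0.0643 with no filter beyond 1 read.

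Ier5l (ENSMUSG00000089762, chr2:30471537-30474219, minus strand), a paralog of Ier5, had 8.60, 8.41 and 7.54 FPKM in C57-non-IR and 6.79, 23.7 and 19.0 FPKM in C57-IR hearts, and 3.97, 7.79 and 8.23 FPKM in Slit2-non-IR and 10.4, 22.1 and 15.97 FPKM in Slit2-IR hearts. The Slit2-Tg groups did not overlap, whereas replicate 1 of C57-IR was below all 3 C57-non-IR hearts. The difference over both genotypes was 0.97 ± 0.28 with an adjusted p of 0.0986. Without replicate 1 of C57-IR it was 1.22 with an adjusted p of 0.00742, and with a replicate block the adjusted p was 0.0217. The IR difference of Ier5 exceeded that of Ier5l by 0.28, with 3 of 6 IR hearts above every non-IR heart in the within-heart difference, a description with no test.

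Ier3 (IEX-1, ENSMUSG00000003541, chr17:35821684-35822923, plus strand), a stress-inducible regulator of cell survival, had 55.7, 64.8 and 49.8 FPKM in C57-non-IR and 64.2, 178 and 166 FPKM in C57-IR hearts. It had 42.3, 85.7 and 66.2 FPKM in Slit2-non-IR and 79.5, 156 and 82.9 FPKM in Slit2-IR hearts. Both pairs of groups overlapped, since replicate 1 of C57-IR and replicates 1 and 3 of Slit2-IR were close to the non-IR hearts. The difference was 0.91 ± 0.28 with an adjusted p of 0.114, and without replicate 1 of C57-IR it was 1.14 with an adjusted p of 0.0131. With a replicate block the adjusted p was 0.0218.

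Ier2 (ENSMUSG00000053560, chr8:84661331-84662852, minus strand), a nuclear protein of the early growth response, was the most abundant member in every group by mean. It had 95.7, 107 and 104 FPKM in C57-non-IR and 107, 252 and 162 FPKM in C57-IR hearts, so the lowest IR heart and the highest non-IR heart were almost equal. It had 45.9, 131 and 115 FPKM in Slit2-non-IR and 133, 223 and 123 FPKM in Slit2-IR hearts, with overlap. The difference over both genotypes was 0.73 ± 0.28 with an adjusted p of 0.214, and the adjusted p was 0.0558 to 0.437 over the alternatives.

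Over both genotypes, 4 of the 9 members were thus higher with IR at the adjusted threshold of 0.05, against 2.34% of all tested genes, and 8 of 9 at an unadjusted p under 0.05, against 7.93% (both for the higher direction). The median difference of the 9 was 0.91, against 0.0036 for all tested genes. The 6 IR libraries lay above the 6 non-IR libraries for 3 of 9 members, against 2.23% of genes. Because the members were chosen with earlier results of these data known, these counts beside the shares of all genes are a description. The count of 4 depended on single libraries. It was 1 without replicate 1 or replicate 2 of C57-non-IR or replicate 1 of Slit2-IR, and 2 without replicate 3 of C57-non-IR, replicate 2 or 3 of C57-IR or replicate 2 of Slit2-IR. Without replicate 1 of C57-IR it was 6, and it was 1 with no filter beyond 1 read. With a replicate block it was 6, Ier3 and Ier5l being added.

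**Figure D2:**
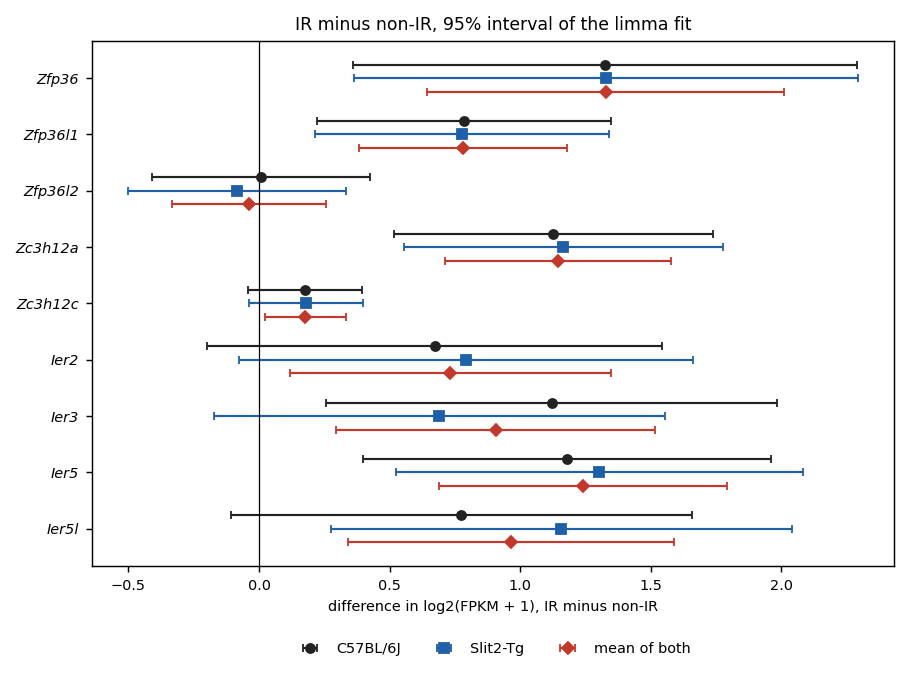
IR minus non-IR difference in log2(FPKM + 1) for each gene, in C57BL/6J hearts (circles), in Slit2-Tg hearts (squares) and as their mean (diamonds), with 95% intervals of the limma fit. The circles and squares of Zfp36 (1.33 and 1.33), Zfp36l1 (0.78 and 0.78) and Zc3h12a (1.13 and 1.17) nearly coincide, and the intervals of Zfp36l2 span 0.

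Within a single genotype of 3 against 3 hearts, no member passed the adjusted threshold of the limma test. In C57BL/6J hearts 5 members had an unadjusted p under 0.05, all higher with IR (Zfp36, Zfp36l1, Zc3h12a, Ier3 and Ier5), and voom on recovered reads also gave 0 adjusted and 5 unadjusted calls. Of all tested genes, 0.407% were higher at the adjusted and 4.55% at the unadjusted threshold. The paper's own list of genes raised by IR in C57BL/6J hearts, also cut at p under 0.05, holds these 5 and Ier2 and Ier5l. In the limma fit the unadjusted p was 0.117 for Ier2 and 0.0798 for Ier5l. In Slit2-Tg hearts 5 members had an unadjusted p under 0.05, again all higher (Zfp36, Zfp36l1, Zc3h12a, Ier5 and Ier5l), against 0.446% and 6.15% of tested genes, and voom gave 0 and 5. The groups did not overlap for 5 members in C57BL/6J hearts (6.75% of genes were higher without overlap) and for 4 in Slit2-Tg hearts (8.65%). Zc3h12a had the smallest adjusted p in both, 0.126 with a difference of 1.13 in C57BL/6J and 0.0997 with 1.17 in Slit2-Tg hearts. Without replicate 1 of C57-IR, Zc3h12a (1.38, adjusted p 0.0338) and Ier3 (1.59, adjusted p 0.0381) passed in C57BL/6J hearts. In Slit2-Tg hearts Zfp36l1 passed without replicate 3 of Slit2-IR (1.12, adjusted p 0.0336) and Zc3h12a without replicate 2 of C57-IR (1.17, adjusted p 0.0185), a library that enters there only through the shared spread.

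The second comparison asked whether Slit2 overexpression altered these transcripts. Without IR, 0 of 9 members passed the adjusted limma threshold, 0 had an unadjusted p under 0.05, and voom gave 0 and 0, against 0.0394% and 3.19% of tested genes in either direction. After IR the member counts were again 0 and 0 with limma and with voom, against 0.0459% and 3.16% of genes. Differences without IR ran from −0.31 for Ier5l to 0.20 for Zfp36l1, and after IR from −0.29 for Ier3 to 0.20 for Ier5. The intervals give the differences that these data leave possible. For Zfp36 after IR the 95% interval was −1.09 to 0.84 and for Ier2 −0.96 to 0.78, while for Zc3h12c it was −0.14 to 0.29 and for Zfp36l2 −0.34 to 0.50. The limits farthest from no difference were −1.19 for Ier5l without IR and −1.15 for Ier3 after IR.

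**Figure D3:**
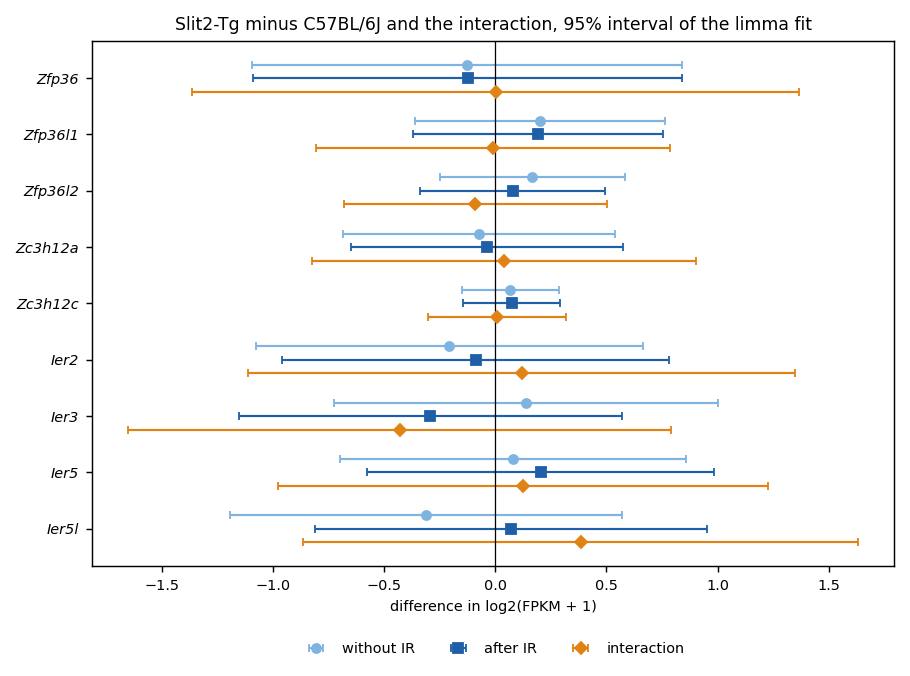
Slit2-Tg minus C57BL/6J difference in log2(FPKM + 1) without IR (circles) and after IR (squares), and the interaction of Slit2 and IR (diamonds), with 95% intervals of the limma fit. All 27 intervals include 0, and the interaction interval of Zfp36 (−1.36 to 1.37) is the widest.

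Whether IR acted differently in the 2 genotypes was tested by the interaction. It gave 0 members at either threshold with limma and with voom, and 0% of tested genes at the adjusted and 1.86% at the unadjusted threshold in either direction. Estimates were 0.00 for Zfp36 (95% interval −1.36 to 1.37), −0.01 for Zfp36l1 (−0.80 to 0.79) and 0.04 for Zc3h12a (−0.83 to 0.90). The estimates farthest from 0 were −0.43 for Ier3 and 0.38 for Ier5l. Differences within these intervals are not excluded by 3 hearts a group.

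Single hearts moved many members at once. In replicate 1 of Slit2-non-IR all 9 members were below their group mean, by a median of −0.54, with Zfp36 at −1.07 and Ier2 at −0.93 on the log2 scale. In replicate 1 of C57-IR 8 of 9 were below, by a median of −0.51, with Ier5l at −1.01 and Ier3 at −0.94. All 9 were above in replicate 2 of C57-IR, by a median of 0.58, and 8 of 9 in replicate 2 of Slit2-IR, by a median of 0.49. Zfp36l2 and Zc3h12c deviated least, by at most 0.38 and 0.17. The 4 libraries numbered replicate 1 also had the highest cardiomyocyte marker sums, 16626 to 19089 FPKM against 12552 to 15118 FPKM in the other 8, and the part of this in the members' values was not tested. In replicate 1 of C57-non-IR, which had the highest cardiomyocyte sum, 6 of 9 members were below their group mean (median deviation −0.02). In replicate 1 of Slit2-IR 5 of 9 were below (median deviation −0.006). Mesothelial markers summed to 6.18 to 7.39 FPKM in C57-IR against 2.19 to 4.54 FPKM in C57-non-IR hearts, and adipose markers to 18.3 and 20.7 FPKM in replicates 2 and 3 of C57-IR against 0.205 in replicate 1. Atrial markers summed to 89.8 to 240 FPKM in C57-IR against 26.6 to 88.0 FPKM in C57-non-IR hearts, without overlap, and to 70.8 to 1695 FPKM in Slit2-IR against 41.1 to 114 FPKM in Slit2-non-IR hearts, with overlap. The median IR difference of the 5 atrial markers tested was 1.10 in C57BL/6J, 1.90 in Slit2-Tg and 1.501 over both genotypes. The largest member difference was that of Zfp36, 1.33 in each of these. The atrial median was thus above every member in Slit2-Tg and over both genotypes, and below Zfp36 in C57BL/6J. Over both genotypes 2 of the 6 mesothelial markers were higher with IR at the adjusted threshold and 0 of the 5 adipose and 0 of the 5 atrial markers tested. Their part in the IR difference was not tested. None of the 7 cardiomyocyte, 7 endothelial, 6 fibroblast or 6 macrophage markers passed the adjusted threshold for IR over both genotypes.

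**Figure D4:**
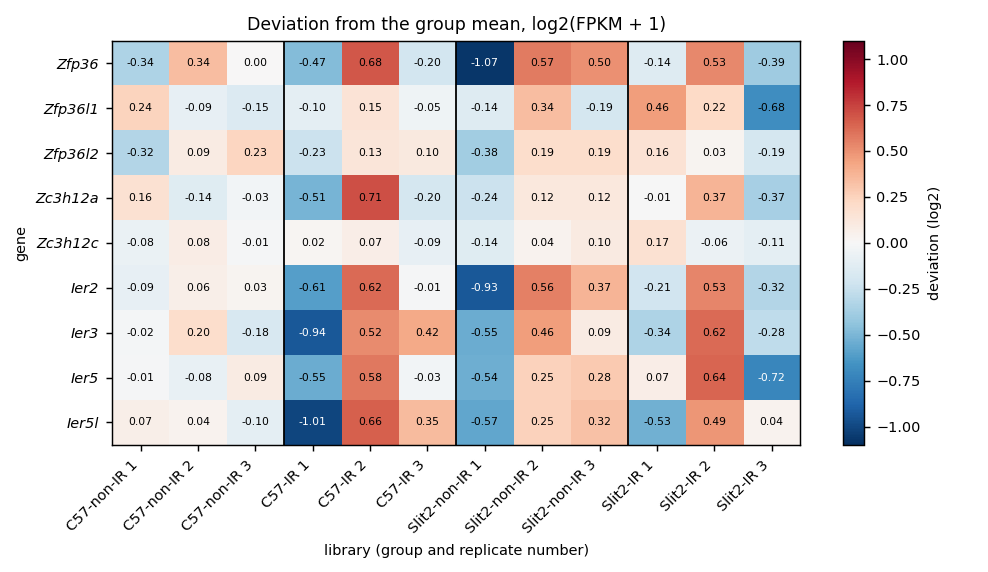
Deviation of each library from its group mean, in log2(FPKM + 1), for the 9 genes (rows) in the 12 libraries (columns, divided by group), with the value printed in each cell. Replicate 1 of Slit2-non-IR is below its group mean in every row and replicate 2 of C57-IR above in every row.

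Genes that work with the members were read from 5 lists, whose counts for IR over both genotypes stand against 2.34% of all tested genes higher and 1.15% lower at the adjusted threshold. Of the other CCCH zinc fingers and AU-rich element binding genes, 14 of 15 were tested and 1 rose with IR over both genotypes, with 0 lower. It was Arid5a (2.05 ± 0.24, adjusted p 0.00177), which stabilises Il6 transcripts in opposition to Zc3h12a. Next by p were Tia1 (−0.27, adjusted p 0.114) and Mapkapk2 (0.21, adjusted p 0.243), the kinase that phosphorylates Zfp36. The list's median was −0.02. Zc3h12d (0.02) and Zc3h12b (−0.02), the remaining Regnases, and Rc3h1 (−0.02) and Rc3h2 (−0.01), the Roquins, had adjusted p-values of 0.870 to 0.946.

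Of 26 deadenylation and decapping genes, the machinery that the ZFP36 proteins recruit, 1 rose and 0 fell, a share near that of all tested genes, with a median of −0.01. It was Btg1 (1.07 ± 0.20, adjusted p 0.0161), a partner of the deadenylase, and its relative Btg2 had 0.96 with an adjusted p of 0.154. Dcp2, the decapping enzyme, had −0.26 (adjusted p 0.122) and Cnot1, the scaffold of the deadenylase complex, −0.03 (adjusted p 0.912). At an unadjusted p under 0.05, 3 were higher and 3 lower, against 7.93% and 7.97% of all tested genes.

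Transcripts known as targets of ZFP36 proteins or Regnases, or as short-lived, formed the third list. Of 24 listed, 22 were tested, and 15 rose and 0 fell at the adjusted threshold, with a median of 1.49. The smallest p-values were those of the cytokine Il6 (3.29 ± 0.31, adjusted p 0.000499), the transcription factor Myc (2.48 ± 0.30, adjusted p 0.00199), the cytokine Lif (0.80 ± 0.10, adjusted p 0.00236) and the chemokine Ccl3 (2.32 ± 0.32, adjusted p 0.00348). Dusp1, the phosphatase of MAP kinases, had 0.01 (adjusted p 0.992). The nonamer was found in the 3′ UTR of 9 of the 22 (40.9%), against 7.38% of all genes read in the same way, but the 22 were listed for that kind of decay. The transcripts read for Myc and Vegfa, both among the 22, had 3′ UTRs of 0 and 27 bases, with little or no room for a match.

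Partners of the IER proteins, that is PP2A subunits, HSF1 and its heat shock targets, and the cell cycle phosphatase gene Cdc25b, were tested for all 11 genes, and 6 rose and 0 fell, with a median of 0.82. All 6 were heat shock proteins. Hspa1b (6.91 ± 0.27, adjusted p 2.18e-07), Hspa1a (5.94 ± 0.23, adjusted p 2.18e-07), Dnajb1 (3.47 ± 0.27, adjusted p 0.000201) and Hsp90aa1 (2.19 ± 0.19, adjusted p 0.000322) had the smallest p-values. Hspa1b averaged 3.41 ± 0.255 FPKM in C57-non-IR and 540 ± 149 FPKM in C57-IR hearts, and 6.14 ± 5.03 and 748 ± 151 FPKM in the Slit2-Tg groups. Hspa1a and Hspa1b are near-identical copies, so the split of reads between them is uncertain. Hsf1 itself had 0.13 (adjusted p 0.593) and the PP2A catalytic subunit Ppp2ca 0.12 (adjusted p 0.254). Cdc25b, the 1 gene of the list below 0, had −0.18 (adjusted p 0.270).

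Immediate early transcription factors, which are induced with the IER genes, were tested for all 18 genes, and 13 rose and 0 fell, with a median of 1.38. Nr4a3 (3.72 ± 0.25, adjusted p 5.7e-05), Fosl2 (2.08 ± 0.19, adjusted p 0.000499), Atf3 (2.55 ± 0.26, adjusted p 0.000844) and Nr4a2 (1.995 ± 0.22, adjusted p 0.00151) led by p. Srf, whose protein binds the CArG box, had 0.47 (adjusted p 0.0231), Egr1 1.40 (adjusted p 0.0116) and Junb 1.48 (adjusted p 0.0298). Myc belongs to this list and to the short-lived transcripts, as does Fos.

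**Figure D5:**
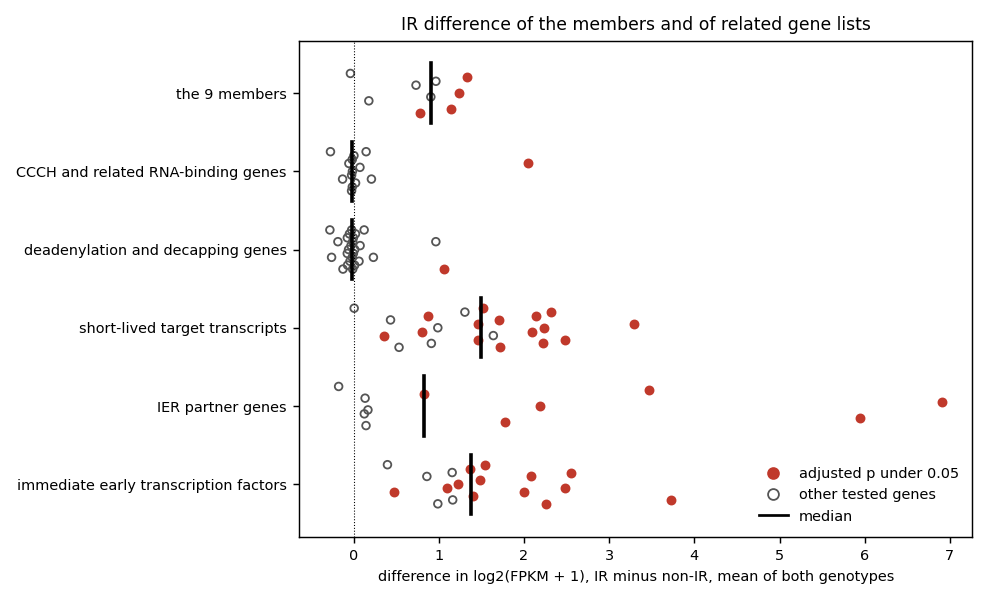
IR minus non-IR difference in log2(FPKM + 1), averaged over both genotypes, for the 9 members and the tested genes of 5 related lists, 1 point a gene, red where the adjusted p is under 0.05, with a line at each median. RNA-binding and decay genes gather around 0 (medians −0.02 and −0.01), and short-lived transcripts and immediate early factors lie mostly above 1 (medians 1.49 and 1.38).

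The genes whose level over the 12 libraries was most like each member's were listed by Pearson's r of log2(FPKM + 1), as a description, since all 12 libraries share the IR contrast. Zfp36 was most like Junb (r = 0.983), Rasd1 (0.979) and Btg1 (0.976). Zc3h12a was most like Arid5a (0.986), the chemokine Cxcl10 (0.984) and the transcription factor Irf1 (0.981). Zfp36l1 was most like the kinase Pim1 (0.927), the co-chaperone Bag3 (0.921) and the histone demethylase Kdm6b (0.919). Among the IER genes, Ier5 was most like Pramef8 (0.994), Trib1 (0.982) and Mafk (0.977), and Ier2 was most like Slc10a6 (0.969), Btg2 (0.960) and the member Zfp36 (0.951). Ier3 was most like Nfe2l2 (0.954), Nov (0.952) and Pxdc1 (0.951), and Ier5l was most like Tpm3 (0.973), Tceal9 (0.970) and Nod2 (0.969). The members that did not pass the IR test in the zinc finger families had other neighbours, Ildr2 (0.893), Myof (0.885) and Gria3 (0.883) for Zfp36l2 and Fam19a5 (0.936), Smad2 (0.917) and Itgb8 (0.890) for Zc3h12c.

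Reads of other genes at the same place were few. Gm44710 overlaps Zfp36 on the other strand with at most 32 reads in a library, Gm26669 overlaps Zfp36l1 with at most 21 and Mir6244 lies within Zc3h12c with 0. How the counting treated strand is not given in the sources used here, so reads of such partners cannot be told apart. The other 6 members overlap no listed gene.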

How the data were processed

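Total RNA of 12 hearts was sequenced in paired-end mode (NEBNext Ultra RNA kit, Illumina HiSeq). The submitters' processing notes name HISAT2 and mm10, and the counting tool, annotation release and strand setting are not given in the sources used here. The authors deposited 1 FPKM value per gene and library. FPKM multiplied by gene length came in whole steps for 100% of values (tolerance 0.01 reads), so reads were recovered, and the steps matched median-of-ratios size factors. The labels give genotype, and IR or non-IR was read from the label letters against the 4 groups in the methods. Hearts are described as independent samples.

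A gene was tested when at least 3 libraries held 10 or more reads for it at the depth of the median library. Because the values are scaled levels and not counts, log2(FPKM + 1) was fitted with limma 3.58.1 (R 4.3.3) with a variance trend. The fit had 4 group means over 12 libraries and Benjamini-Hochberg adjustment over 15240 genes, threshold 0.05. The scale understates changes of low genes. The same fit was also run on simulated reads with known changes, which were larger than the members' differences. Alternatives were a pseudocount of 0.1, no filter beyond 1 read (28242 genes), at least 10 reads in every library (13189 genes), a fit of the 6 libraries of a comparison alone, upper-quartile scaling, a block for the replicate number, limma-voom on recovered reads, and leaving out each library. An exact permutation of 3 against 3 cannot go below p = 0.1, so single genes rest on the fit across all genes.

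Named genes of a related list were those with an adjusted p under 0.05 for IR over both genotypes, at most 4 a list by smallest p, or the next by p where fewer passed. Zc3h12b, Zc3h12d, Rc3h1, Rc3h2, Cnot1, Dusp1, Hsf1, Ppp2ca, Cdc25b, Srf, Egr1 and Junb were named besides, after their values had been seen. Members and lists were chosen with earlier results of these data known. The replicate numbers of the labels were checked for pairing. The correlation of same-numbered hearts' deviations was 0.143 to 0.294 for IR in Slit2-Tg and 0.154 to 0.362 for Slit2 after IR, all 3 pairs over 0.1, and 0.0833 to 0.295 and 0.0377 to 0.324 in the other 2 comparisons, with 2 of 3 pairs over 0.1. Python 3.11.15, pandas 2.3.3 and matplotlib 3.10.9 were used.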

Additional observations from a re-analysis of the deposited data

How the results depend on the processing

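The count of members called for IR over both genotypes was 4 in the report and 1 with no filter beyond 1 read, where Zc3h12a remained (28242 genes were then adjusted over), 4 with a pseudocount of 0.1, at least 10 reads in every library, upper-quartile scaling or voom, and 1 to 6 when single libraries were left out. For IR in C57BL/6J it was 0 to 2 and for IR in Slit2-Tg 0 to 1 over the left-out libraries, and 0 under the other alternatives. For Slit2 without IR, Slit2 after IR and the interaction it was 0 under every alternative run.

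With the replicate block, 6 members were called for IR over both genotypes, Ier3 (adjusted p 0.0218) and Ier5l (0.0217) being added to the 4, and 0 in the other 5 comparisons. All 3 pairs correlated over 0.1 in 2 comparisons, and there the block changed no member's call. In the other 2 comparisons 2 of 3 pairs did so, and the block changed no member's call there either. Whether same-numbered hearts were handled together is not given in the sources used here.

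Of 1008 values of single members under the alternatives, 911 kept their direction and side of the threshold, 22 lost and 8 gained the threshold, and 67 changed sign, 55 of these in the Slit2 comparisons and the interaction, where no member was called. Under upper-quartile scaling the sign changed for Zfp36l2 in IR in C57BL/6J (−0.037) and for Zfp36 (−0.019) and Zc3h12c (−0.0077) in the interaction. Leaving out single libraries changed the sign of further values. The ranges for Zfp36l2 were −0.15 to 0.12 for IR in C57BL/6J, −0.27 to 0.013 for IR in Slit2-Tg and −0.13 to 0.020 for IR over both genotypes. Those for Slit2 without IR were Zfp36 −0.41 to 0.41, Zc3h12a −0.14 to 0.044, Ier2 −0.49 to 0.26, Ier3 −0.090 to 0.41 and Ier5 −0.062 to 0.35. Those for Slit2 after IR were Zfp36 −0.39 to 0.22, Zfp36l1 −0.040 to 0.53, Zfp36l2 −0.039 to 0.17, Zc3h12a −0.29 to 0.32, Zc3h12c −0.0099 to 0.13, Ier2 −0.39 to 0.22, Ier5 −0.12 to 0.56 and Ier5l −0.43 to 0.40. Those for the interaction were Zfp36 −0.53 to 0.34, Zfp36l1 −0.24 to 0.33, Zfp36l2 −0.28 to 0.071, Zc3h12a −0.22 to 0.39, Zc3h12c −0.077 to 0.062, Ier2 −0.35 to 0.43, Ier5 −0.20 to 0.48 and Ier5l −0.12 to 0.71. The cause was not tested. The 5 differences between paralogs kept their direction and moved by less than 1 SD under all 14 alternatives each, which were chosen after seeing the data. Most of these alternatives left out 1 library. With 3 hearts a group, that could neither reverse these differences nor move them by 1 SD, so it does not test them.

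With 3 hearts a group, the 95% intervals for Slit2 reached −1.19 for Ier5l without IR and −1.15 for Ier3 after IR. Differences within these intervals, on the log2 scale, are not excluded. The p-values set each difference against the spread between these hearts, as fitted across all tested genes.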
